A study of Mus musculus with 16 samples.

Results

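The vessels of the corpus callosum were followed through 10 genes of brain endothelium and of its barrier during demyelination with cuprizone (CPZ) and after its withdrawal. The list, given by name and not by a measured value, holds Cldn5, Ocln, Cdh5, Pecam1, Kdr, Flt1, Tek, Slc2a1, Abcb1a and Mfsd2a. Every probe whose accession leads to one of these names was taken, which gave 13 of the 41174 probes on the array and 10 of the 18749 genes with a name. CPZ binds copper, and feeding it is a common way to strip myelin from the white matter of mice. The 16 single-colour arrays held RNA of the corpus callosum of male C57BL/6 mice that entered the experiments at 7 to 8 weeks of age and were older when sampled, namely 3 untreated controls on normal chow, 3 mice after 2 weeks of CPZ, 4 mice after 4 weeks of CPZ, and 6 mice given regular diet after 4 weeks of CPZ. The controls were matched in age to the group at 4 weeks of CPZ only. The CPZ was mixed into powdered chow at 0.2 to 0.4% by the sample descriptions. The regular diet lasted for a short or a longer time in the study, and the sample descriptions do not tell these arrays apart, so the 6 arrays stand as 1 group here. For 14 of the 16 samples the scanner file recorded for the sample and its column in the processed table hold different arrays. Arrays were assigned through the table. With the scanner files as recorded, limma called 0 genes in each comparison (adjusted p under 0.05 and at least 2-fold), and the median log2 fold change of the 10 genes at 4 weeks against untreated was -0.53, against -0.07 as assigned. Under that recorded assignment Slc2a1, Cldn5, Mfsd2a, Cdh5 and Ocln had an unadjusted p under 0.05 at 4 weeks, all with lower levels than untreated, as 2.24% of all probes had, and each had an adjusted p of 0.951. Arrays are numbered within each group as the samples are, and each is taken as 1 mouse, since the methods give for each condition a number of mice in the range of these group sizes.

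Endothelial cells of the brain form a barrier because tight junctions close the gaps between them, because vesicle transport across them is low, and because carriers and pumps decide what enters or leaves. Claudin-5 (Cldn5) and occludin (Ocln) are proteins of the tight junction, VE-cadherin (Cdh5) holds the adherens junction, and PECAM-1 (Pecam1) sits where endothelial cells meet. VEGFR2 (Kdr) is the main signalling receptor for VEGF, VEGFR1 (Flt1) binds VEGF and, in its soluble form, keeps it from Kdr, and TIE2 (Tek) is the receptor for angiopoietins. GLUT1 (Slc2a1) brings in glucose, P-glycoprotein (Abcb1a) pumps out drugs and lipophilic compounds, and MFSD2A (Mfsd2a) carries lysophosphatidylcholine with omega-3 fatty acids and is known for keeping vesicle transport low.

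Sequence upstream of the genes is shown for the members of this barrier machinery whose window lies wholly outside the annotated gene and whose levels ran close to those of the other genes over the arrays. ETS factors bind a core of GGAA and are known for their part in endothelial transcription, so this core is given in capitals, on either strand (GGAA or TTCC). The 250 bases before the start are from RefSeq on GRCm38.p6, 5′ to 3′ on the strand of the gene. Cldn5 is on the plus strand at chr16:18776597-18776846, Ocln on the minus strand at chr13:100552719-100552968, and Abcb1a on the plus strand at chr5:8566841-8567090.
Cldn5: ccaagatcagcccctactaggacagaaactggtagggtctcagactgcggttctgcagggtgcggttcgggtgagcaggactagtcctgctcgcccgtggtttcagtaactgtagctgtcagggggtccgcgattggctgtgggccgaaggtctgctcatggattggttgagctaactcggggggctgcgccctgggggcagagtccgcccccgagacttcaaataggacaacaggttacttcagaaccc
Ocln: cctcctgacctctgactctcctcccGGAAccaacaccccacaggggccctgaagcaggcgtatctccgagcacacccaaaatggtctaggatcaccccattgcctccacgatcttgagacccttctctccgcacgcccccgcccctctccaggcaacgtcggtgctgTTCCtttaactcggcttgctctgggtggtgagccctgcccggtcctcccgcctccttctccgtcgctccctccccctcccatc
Abcb1a: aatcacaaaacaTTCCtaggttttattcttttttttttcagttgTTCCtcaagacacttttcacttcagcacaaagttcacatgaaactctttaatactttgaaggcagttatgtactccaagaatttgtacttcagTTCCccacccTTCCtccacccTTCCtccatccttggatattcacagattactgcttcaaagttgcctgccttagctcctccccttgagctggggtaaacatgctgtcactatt
The Cldn5 window held 0 copies of the core, that of Ocln 2 and that of Abcb1a 5. Of the 32851 windows of this length in the table, 93.4% held at least 1 copy, with a median of 3. Of the 10 genes, 8 had an entry, with 9 windows in all, and 7 of these windows held the core. Slc2a1 was the other window with 0. Pecam1 and Cdh5 had no entry. The match is of letters only, and the array has no measure of binding.

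None of the 10 genes passed the test in any comparison. A call needed an adjusted p under 0.05 in limma's test with Benjamini-Hochberg adjustment over all tested probes and a change of at least 2-fold. With these terms, 0 of 10 genes were called after 2 weeks of CPZ against untreated, where the share of all 27505 tested probes called was 0.193%. At 4 weeks against untreated 0 of 10 were called, beside 0.164% of all probes, and at 4 weeks against 2 weeks 0 of 10, beside 0.0109%. Regular diet against untreated called 0 of 10, beside 0.799% of 27785 tested probes, and regular diet against 4 weeks of CPZ 0 of 10, beside 0.0036%. At these shares, a count of 0 among 10 genes does not stand apart from the background. At an unadjusted p under 0.05 in limma, 1 of 10 genes was higher at 2 weeks (4.25% of all probes were), 0 of 10 differed at 4 weeks (10.1% in either direction), 1 was lower at 4 weeks against 2 weeks (5.82%), 1 was lower on regular diet against untreated (4.61%), and 1 was lower on regular diet against 4 weeks (11.4%). The smallest adjusted p of the 10 genes in the 5 comparisons was 0.115 in limma, for Pecam1. RNA of a whole tissue piece was measured, so fewer endothelial cells and less RNA per cell cannot be told apart.

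The spread between arrays of the same group was wide for most of the genes. Levels are given throughout as log2 of the background-subtracted signal over the array's 75th percentile, so a level of 0 is the signal of the probe at that percentile, and levels of different genes are not set against each other. All 10 genes were well above background on 13 of the 16 arrays. The exceptions were 4-week array 1 and regular diet array 1, with 7 of 10 genes, and regular diet array 2, with 9.

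**Figure D1:**
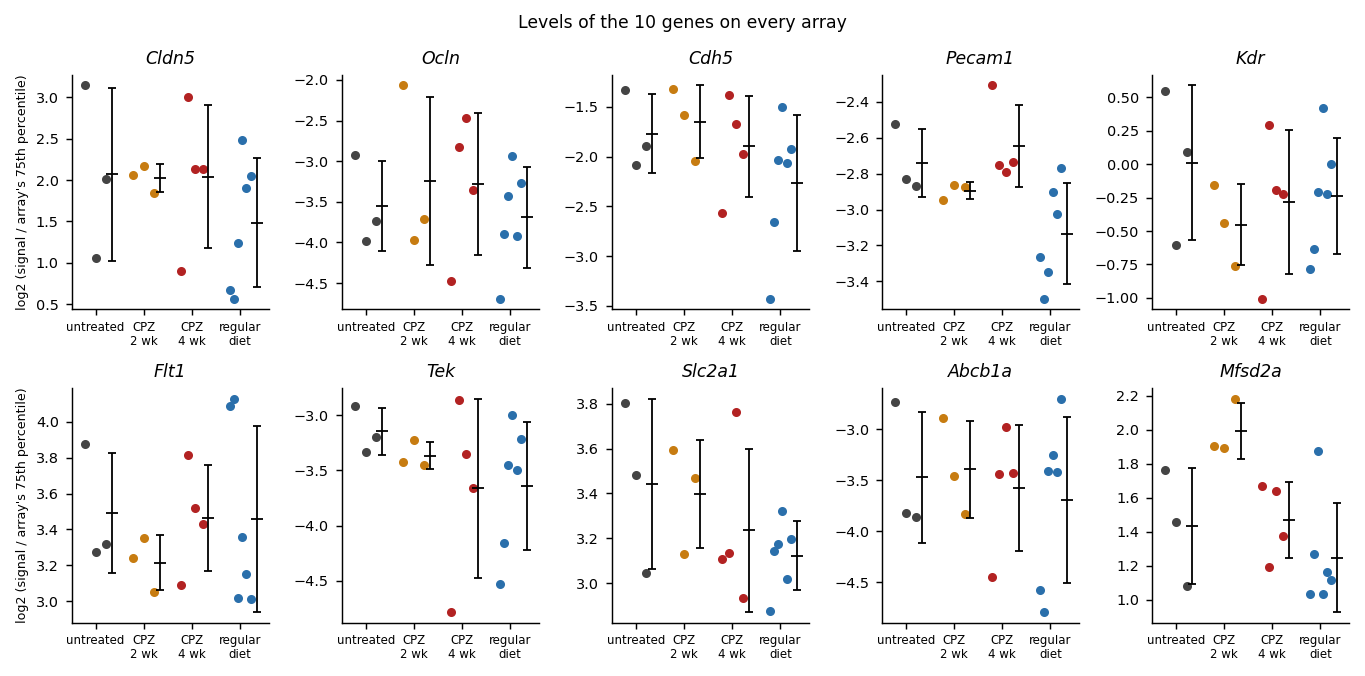
Log2 level of each of the 10 genes (brightest probe; each panel has its own axis) on the 3 untreated, 3 CPZ 2-week, 4 CPZ 4-week and 6 regular diet arrays. Points are arrays in the order of their number and bars are the mean ± SD of the group. In all panels but that of Mfsd2a, between untreated and 2 weeks and between 4 and 2 weeks, and that of Pecam1, between 4 and 2 weeks, the points of the groups compared overlap.

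Cldn5, the claudin that dominates brain endothelial tight junctions, had levels of 3.15, 1.06 and 2.01 on the 3 untreated arrays. After 2 weeks of CPZ the levels were 2.06, 2.17 and 1.84, and after 4 weeks 0.90, 3.00, 2.14 and 2.13. On regular diet they lay between 0.57 and 2.48 with a median of 1.57. The untreated arrays alone spanned 2.09 on the log2 scale, and every 2-week array lay within that span. The log2 fold change was -0.05 (SE 0.59, 95% interval -1.37 to 1.28) at 2 weeks and -0.03 (SE 0.55, -1.27 to 1.21) at 4 weeks. Without untreated array 1 these were 0.49 and 0.51, and without untreated array 2 they were -0.56 and -0.54. Against untreated, regular diet gave -0.59 (SE 0.52, -1.70 to 0.53), and -0.05 without untreated array 1. These intervals hold changes of more than 2-fold in either direction at 2 and 4 weeks, so for Cldn5 a change of that size was not detectable with these arrays.

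Ocln, the second tight junction gene, was dim. Its brighter probe read -2.92, -3.99 and -3.73 untreated, -2.06, -3.97 and -3.71 at 2 weeks, and -4.48, -2.82, -2.47 and -3.35 at 4 weeks. Regular diet arrays ran from -4.69 to -2.93, with a median of -3.67. The probe was well above background on 14 of the 16 arrays, and the exceptions were 4-week array 1 and regular diet array 1. The groups overlapped in part, and the log2 fold change was 0.30 (SE 0.62) at 2 weeks and 0.27 (SE 0.58) at 4 weeks. Without 2-week array 1 the first was -0.29, and with any 1 array left out the second ran from -0.01 (without 4-week array 3) to 0.67 (without 4-week array 1). A second probe of Ocln was well above background on 0 of the 16 arrays and was not tested.

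Cdh5, the adherens junction cadherin typical of endothelium, read -1.33, -2.09 and -1.89 in the untreated group, -1.32, -1.58 and -2.05 at 2 weeks, and -2.57, -1.37, -1.67 and -1.97 at 4 weeks. On regular diet its lowest level was -3.43, its median -2.05 and its highest -1.50. Regular diet arrays 1 and 2, at -3.43 and -2.65, were the lowest of all 16, and the other 4 lay within the range of the remaining groups. The log2 fold change of regular diet against untreated was -0.50 (SE 0.37, 95% interval -1.29 to 0.30), with an adjusted p of 0.603 in limma. It was -0.28 without untreated array 1 and -0.26 without regular diet array 1. The second probe of Cdh5 was well above background on 0 of 16 arrays.

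Pecam1, the platelet and endothelial adhesion molecule that leukocytes also carry, had its lowest levels on regular diet. Its levels were -2.52, -2.83 and -2.87 untreated, -2.95, -2.86 and -2.88 at 2 weeks, and -2.31, -2.75, -2.79 and -2.74 at 4 weeks. On regular diet they were -3.26, -3.50, -3.35, -2.90, -3.03 and -2.77. Regular diet arrays 1 to 5 were below every untreated and every 4-week array, and array 6 lay among them, so the groups overlapped through 1 array. The log2 fold change was -0.49 (SE 0.16, 95% interval -0.83 to -0.14) against 4 weeks of CPZ, with an unadjusted p of 0.009 and an adjusted p of 0.115 in limma. Against untreated it was -0.39 (SE 0.18), with an unadjusted p of 0.042 and an adjusted p of 0.452 in limma. Within the 3 slides that held both groups, regular diet differed from 4 weeks by -0.34, -0.84 and -0.60, and from untreated by -0.38, -0.30 and -0.28. With quantile normalization the difference from 4 weeks was -0.79 with an adjusted p of 0.0446 in limma, and with scaling to the median -0.79 with 0.0313, each still under 2-fold. Those scalings also moved the median of all probes in that comparison, from 0.01 to -0.05 and -0.29. At 4 weeks all 4 arrays of Pecam1 were above all 3 arrays at 2 weeks, a separation in this direction that 5.49% of all probes showed, but the log2 fold change was 0.25 (SE 0.18, adjusted p 0.569 in limma), and -0.24 with the scanner files as recorded.

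The receptors of the VEGF and angiopoietin pathways did not separate the groups either. Kdr read 0.55, -0.61 and 0.09 untreated and -0.16, -0.44 and -0.76 at 2 weeks, where the log2 fold change was -0.46 (SE 0.38, 95% interval -1.32 to 0.40), and -0.20 without untreated array 1 or -0.77 without untreated array 2. At 4 weeks the levels of Kdr were -1.01, 0.30, -0.19 and -0.23, and on regular diet -0.79 to 0.42 with a median of -0.21. Every group mean of Kdr after CPZ was below the untreated mean of 0.01 ± 0.58 (SD, n = 3), by less than that SD.

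Tek was well above background on 14 of 16 arrays. It read -2.92, -3.33 and -3.19 in untreated mice, -3.43, -3.23 and -3.45 at 2 weeks, and -4.78, -2.86, -3.35 and -3.66 at 4 weeks. On regular diet it ran from -4.52 to -3.0, with a median of -3.48. The 4-week group held both the lowest and the highest level of Tek on the 16 arrays. Its log2 fold change at 4 weeks was -0.52 (SE 0.39) with all 4 arrays and -0.14 without 4-week array 1.

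Flt1, the decoy receptor, was measured by a pair of probes. Both its probes were well above background on all 16 arrays, and they followed each other over the arrays with r = 0.96. The brighter probe read 3.88, 3.27 and 3.32 untreated, 3.24, 3.35 and 3.05 at 2 weeks, and 3.09, 3.81, 3.52 and 3.43 at 4 weeks. On regular diet arrays 1 and 2 it read 4.09 and 4.13, the highest of the 16 arrays, and on arrays 3 to 6 it read 3.02, 3.36, 3.15 and 3.01. The second probe read 1.38 and 1.51 on those 2 arrays and 0.33 to 0.68 on the other 4. The group means nevertheless lay together, at 3.49 ± 0.34 (SD, n = 3) untreated, 3.22 ± 0.15 (n = 3) at 2 weeks, 3.46 ± 0.30 (n = 4) at 4 weeks and 3.46 ± 0.52 (n = 6) on regular diet.

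Slc2a1, the glucose carrier, read 3.8, 3.48 and 3.05 in the untreated group, 3.59, 3.13 and 3.47 at 2 weeks, and 3.11, 3.14, 3.76 and 2.94 at 4 weeks. Its regular diet arrays ran from 2.88 to 3.32 with a median of 3.16. The 95% intervals of its log2 fold change ran from -0.68 to 0.58 at 2 weeks, from -0.80 to 0.38 at 4 weeks and from -0.76 to 0.11 on regular diet against untreated, so a change of 2-fold lay outside each of them.

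Abcb1a, the efflux pump, was well above background on 13 of the 16 arrays. Its levels were -2.73, -3.83 and -3.86 untreated, -2.89, -3.46 and -3.83 at 2 weeks, and -4.45, -3.44, -2.98 and -3.43 at 4 weeks. Regular diet arrays ran from -4.79 to -2.70 with a median of -3.42. Each group with more than 3 arrays held both an array below every untreated one and arrays above the untreated mean. The log2 fold change was 0.08 (SE 0.44) at 2 weeks and -0.10 (SE 0.41) at 4 weeks, each smaller than its SE. Untreated array 1, at -2.73, and 4-week array 1, at -4.45, lay apart from the rest of their groups. The direction of neither change was settled.

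Mfsd2a, the lysolipid carrier, was the member whose groups did not overlap in 2 comparisons, against 1 or 0 for the others. It read 1.76, 1.46 and 1.08 untreated and 1.91, 1.89 and 2.18 after 2 weeks of CPZ, so that all 3 arrays at 2 weeks were above all 3 untreated arrays. At 4 weeks it read 1.67, 1.19, 1.64 and 1.38, and every one of these was below every 2-week array. The log2 fold change was 0.56 (SE 0.23, 95% interval 0.05 to 1.08) at 2 weeks, a 1.48-fold higher level. In limma its unadjusted p was 0.0358 and its adjusted p 0.465. At 4 weeks against 2 weeks the log2 fold change was -0.53 (SE 0.21, 95% interval -1.01 to -0.04), with an adjusted p of 0.461 in limma. Of all probes, 8.29% were higher without overlap at 2 weeks, as 1 of the 10 genes was, and 8.36% were lower without overlap at 4 weeks against 2 weeks, as again 1 of the 10 was. Both comparisons use the same 3 arrays at 2 weeks. On slide 1, which held 2 of the 2-week arrays and 1 untreated array, the difference was 0.28, and on slide 4, with 2 arrays at 4 weeks and 1 at 2 weeks, it was -0.61. With the scanner files as recorded, the log2 fold change at 2 weeks was -0.69. On regular diet array 3 read 1.87, above the untreated arrays and below the 2-week arrays, and the other 5 read 1.03 to 1.27.

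**Figure D2:**
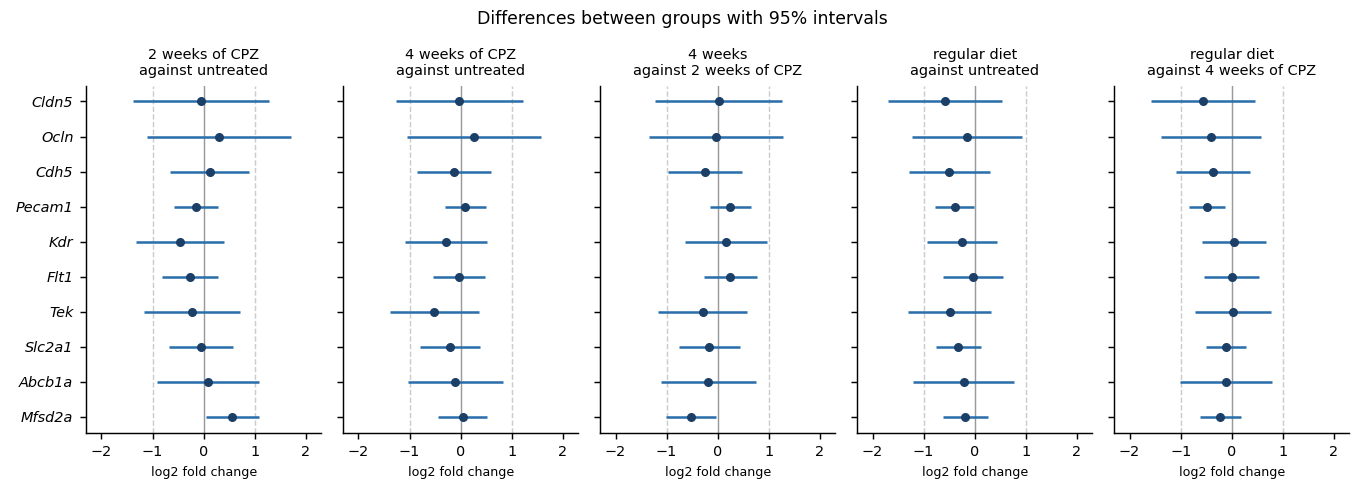
Log2 fold change of each gene in the 5 comparisons (points) with its 95% interval in limma's fit (lines); dashed lines mark a 2-fold change. The intervals of Mfsd2a at 2 weeks and at 4 weeks against 2 weeks and of Pecam1 on regular diet leave out 0. Those of Cldn5 and Ocln reach past 2-fold, as do some of those of Cdh5, Kdr, Tek, Abcb1a and Mfsd2a.

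Taken as a group, the 10 genes had a median of their log2 fold changes of -0.05 at 2 weeks (4 higher, 6 lower) and -0.07 at 4 weeks (3 higher, 7 lower), beside medians of 0.03 and -0.03 over all probes. At 4 weeks against 2 weeks the median was -0.10, with 4 higher and 6 lower. On regular diet all 10 were below the untreated mean, with differences from -0.03 to -0.59 and a median of -0.28, beside a median of -0.03 over all probes, of which 52.8% were lower. Without untreated array 1 the median was -0.04, and with any other array left out it lay between -0.44 and -0.21. Within the 3 slides that held both groups it was -0.43, with 0 of 10 higher, on slide 1, which held untreated array 1, -0.06 with 5 of 10 higher on slide 2, and -0.43 with 2 of 10 higher on slide 3. Regular diet arrays 1 and 2 had the lowest medians of their group relative to the untreated mean, -0.95 and -0.70. On untreated array 1 all 10 genes were above the untreated mean. Its correlation with the other 2 untreated arrays across probes was 0.905 and 0.916, against 0.984 between those 2. Untreated array 1 also had the lowest share of probes well above background of the 16 arrays, 57.3%. Against 4 weeks of CPZ, regular diet had a median of -0.17 with 8 of 10 lower, while 49.2% of all probes were lower. None of these medians was tested.

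Over the 16 arrays most of the genes varied together, whatever the group. Of the 45 pairs, 36 had a positive Pearson r, with a median of 0.38 and a range from -0.35 to 0.86. Within groups, after each group's mean was taken off, the median was 0.32. The closest pairs were Cldn5 with Cdh5 and Cdh5 with Tek, both at 0.86, and Cldn5 with Kdr at 0.84. Cldn5, Cdh5, Tek, Kdr, Abcb1a and Ocln, seen together in the plot of correlations and picked out after their values were known, had r between 0.65 and 0.86 in every pair. Against the mean of the other 9 genes, r was 0.90 for Cdh5, 0.86 for Cldn5, 0.81 for Abcb1a, 0.80 for Ocln, 0.77 for Tek, 0.71 for Kdr and 0.62 for Slc2a1. Pecam1 stood at 0.30, Mfsd2a at 0.13 and Flt1 at -0.21. The levels of 1 array share a library, a dissection and a scaling factor, so these values describe the arrays and carry no test.

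**Figure D3:**
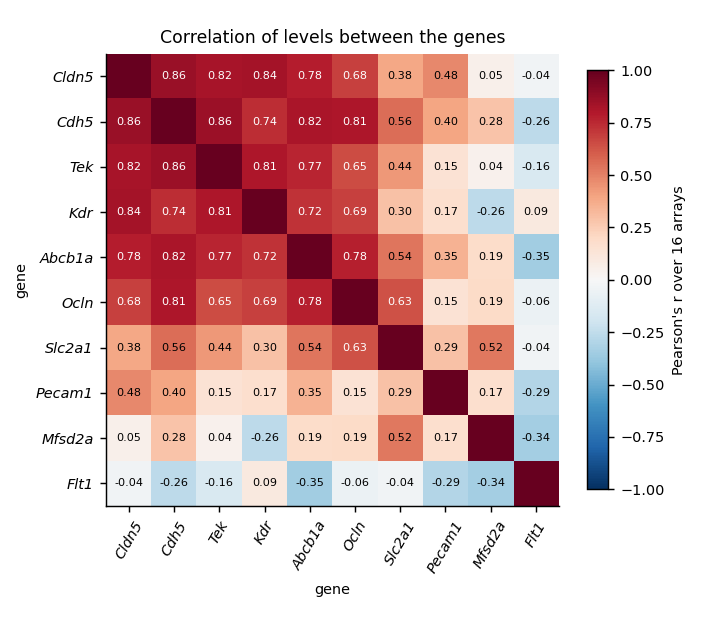
Pearson correlation of log2 levels between the 10 genes over the 16 arrays (colour and number). Cldn5, Cdh5, Tek, Kdr, Abcb1a and Ocln form a block with r from 0.65 to 0.86, and Flt1 has r between -0.35 and 0.09 with the others.

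The mean z-score of the 10 genes was 1.30 on untreated array 1, the highest of the 16, and -1.26, -0.86 and -0.81 on regular diet array 1, regular diet array 2 and 4-week array 1, the lowest. Cldn5, Cdh5 and Abcb1a were low on these last 3 arrays, while Flt1 was at its highest on both regular diet arrays and near its lowest on the 4-week array. Without regular diet arrays 1 and 2, a choice made after the values were seen, r of Flt1 with the mean of the others was 0.70 instead of -0.21, that of Cdh5 and Cldn5 was 0.89 and 0.82, and that of Pecam1 and Mfsd2a was -0.07 and -0.12 instead of 0.30 and 0.13. Without untreated array 1 instead, r of Flt1 was -0.44. These 2 arrays also differed from the other 4 in markers of microglia, the resident macrophages of the brain. The summed signal of the 14 microglial markers was 1119 and 1420 times the 75th percentile on them, 158 to 226 on the other 4 regular diet arrays and 48.9 to 341 on the remaining arrays. All 14 of these markers were well above background on all 16 arrays. The part of those cells in the Flt1 signal was not tested.

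**Figure D4:**
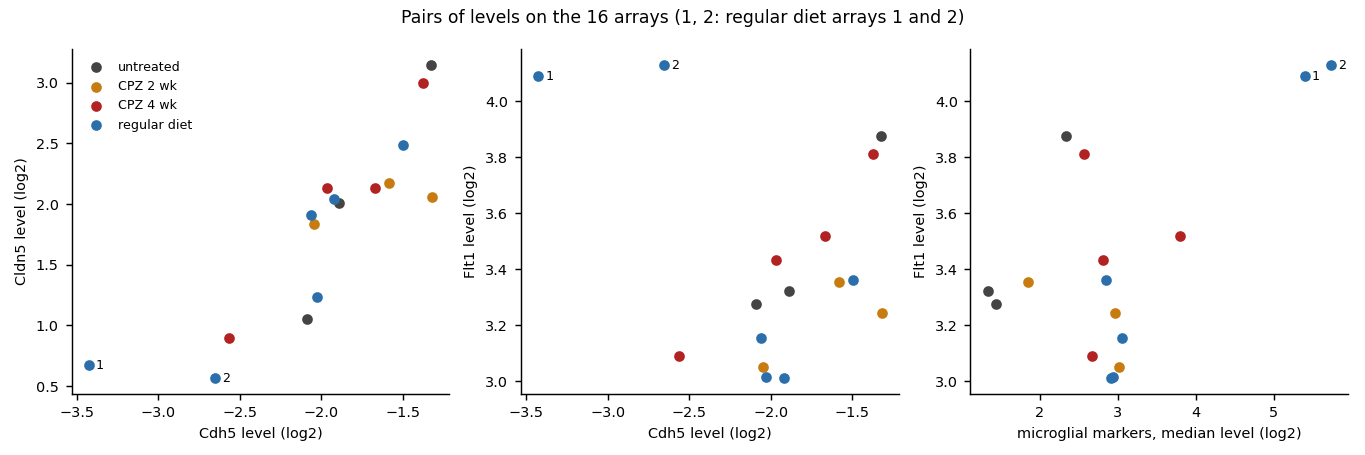
Log2 levels of Cldn5 and of Flt1 against Cdh5, and of Flt1 against the median log2 level of 14 microglial markers, on the 16 arrays coloured by group; 1 and 2 mark regular diet arrays 1 and 2. Cldn5 and Cdh5 have an r of 0.86 over the arrays, and those 2 arrays have the highest Flt1 (4.09 and 4.13) and the lowest Cdh5 (-3.43 and -2.65).

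The 5 genes outside the list that ran closest to the mean of the 10, out of 13977 named genes, were Cd93 (r = 0.94), Nsmce4a (0.93), Emcn (0.93), Cyhr1 (0.93) and Gstm1 (0.93). Cd93 and Emcn are endothelial surface proteins. Gstm1 is a glutathione transferase and Nsmce4a a subunit of the SMC5/6 complex, which acts in DNA repair. An r over 0.5 with the mean of the 10 was seen for 22.7% of all these genes.

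Other endothelial genes gave no calls either. Of a list of 25 (such as Tie1, Esam, Erg and Sox17), 22 to 25 were well above background on each array, and 23 were tested during CPZ. None was called at 2 weeks or at 4 weeks, and the median of the log2 fold changes was 0.00 and -0.03. On regular diet against untreated, 0 of 24 were called, with 19 lower and a median of -0.28. Fli1, an ETS factor of endothelial and blood cells, had 0.82 (SE 0.28, adjusted p 0.32 in limma) at 4 weeks, and Cd34, a surface sialomucin, had 0.87 (SE 0.30, adjusted p 0.332). At 4 weeks Cd34 read 4.12, 3.94, 4.01 and 3.89 against 3.34, 2.66 and 3.36 untreated, higher without overlap, as 5.25% of all probes were. Both genes were highest on regular diet arrays 1 and 2, Cd34 at 5.46 and 5.59 and Fli1 at 1.57 and 1.75, like Flt1. Robo4 and Cd93, both found on endothelium, were lowest on the same arrays, at 0.31 and 0.23 and at -0.87 and -0.68. On regular diet against untreated, Robo4 had -0.56 (SE 0.21) and Cd93 -0.89 (SE 0.34), with an adjusted p of 0.363 for both in limma. The markers of pericytes and smooth muscle, the cells that wrap these vessels, had 0 of 12 called in every comparison, with medians from -0.19 to 0.06. Their summed signal ran from 22.9 to 40.0 untreated, 20.2 to 40.6 at 2 weeks, 16.9 to 33.3 at 4 weeks and 21.7 to 28.9 on regular diet.

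Among the other junction genes and carriers of the barrier, 0 of 26 tested were called in any comparison, with a median of 0.14 at 2 weeks and 0.11 at 4 weeks. On regular diet the median was -0.17 against untreated, with 17 of 26 lower, and -0.20 against 4 weeks, with 20 of 26 lower. Slc7a5, the light chain of the large neutral amino acid transporter, read -0.91, -1.0 and -1.15 untreated and 0.61, 0.25 and 0.99 at 2 weeks, and its log2 fold change was 1.64 (SE 0.37, adjusted p 0.116 in limma). At 4 weeks it read 0.79, -0.42, 1.1 and 0.36, a log2 fold change of 1.48 (SE 0.35, adjusted p 0.122). All 7 CPZ arrays were above all 3 untreated ones, beside 8.29% of all probes at 2 weeks and 5.25% at 4 weeks. With the slide as a random block the adjusted p of Slc7a5 in limma was 0.0483 at 2 weeks and 0.0419 at 4 weeks, and with the slide as a fixed block it was 0.0730 and 0.0398. With the scanner files as recorded Slc7a5 lay below untreated, by a log2 difference of -0.62 at 2 weeks and of -0.80 at 4 weeks. Slc3a2, the heavy chain that carries Slc7a5 to the membrane, read 3.73, 3.34 and 3.46 untreated and 4.86, 4.39 and 5.06 at 2 weeks, with a log2 fold change of 1.26 (SE 0.34, adjusted p 0.175). Slc7a1, a carrier of cationic amino acids, had 0.71 (SE 0.25, adjusted p 0.325) at 2 weeks and 0.68 (SE 0.23, adjusted p 0.31) at 4 weeks. On regular diet all 3 carriers split within the group: arrays 1 to 3 of Slc7a5 read 0.70, 1.13 and 0.69 and arrays 4 to 6 read -1.17, -1.25 and -1.12, close to the lowest untreated array. These carriers are made by many cell types, and their cell of origin was not measured. Foxq1, a forkhead factor of brain endothelium, had 0.81 (SE 0.23, adjusted p 0.354) at 4 weeks against 2 weeks and -0.59 (SE 0.18, adjusted p 0.102) on regular diet against 4 weeks, the latter 0.31 with the scanner files as recorded.

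Of the ligands and signalling partners of these receptors, 0 of 22 tested were called in any comparison. At 2 weeks 1 of the 22 was higher and 5 were lower without overlap, beside 8.29% and 9.02% of all probes. Vegfa, the ligand of Kdr and Flt1, read -0.01, 0.52 and 0.95 untreated and 1.54, 1.22 and 1.35 at 2 weeks, with no overlap, and its log2 fold change was 0.88 (SE 0.27, adjusted p 0.232 in limma). At 4 weeks Vegfa read 0.76, 0.43, 1.01 and 0.59, overlapping the untreated arrays again. Dll4, a Notch ligand of endothelial cells, had -0.74 (SE 0.24, adjusted p 0.267) at 2 weeks. Reck, a partner of the WNT7 receptor complex in brain endothelium, had -0.67 (SE 0.22, adjusted p 0.405) at 4 weeks against 2 weeks, and Vegfc, the lymphatic growth factor, had -0.58 (SE 0.21, adjusted p 0.13) on regular diet against 4 weeks.

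Genes of a permeable or activated endothelium, including Plvap, Icam1, Vcam1 and the selectins, also gave 0 calls among 13 tested in each comparison, with medians of 0.25 at 2 weeks, 0.32 at 4 weeks and 0.32 on regular diet against untreated, and of 0.08 at 4 weeks against 2 weeks and -0.17 on regular diet against 4 weeks. Apln, a peptide made by sprouting endothelium, read 2.02, 1.35 and 1.02 untreated and 0.56, -0.14 and -0.40 at 2 weeks, and its log2 fold change was -1.45 (SE 0.41, adjusted p 0.195 in limma). Angptl4, a secreted inhibitor of lipoprotein lipase, had 0.91 (SE 0.27, adjusted p 0.241) at 4 weeks, with all 4 arrays above all 3 untreated ones, beside those 5.25% of all probes, and -0.55 with the scanner files as recorded. Mmp2, a gelatinase, had 1.41 (SE 0.55, adjusted p 0.148) on regular diet against 4 weeks, 0.72 without 4-week array 1 and -0.86 with the scanner files as recorded, and Cavin2, a coat protein of caveolae, had -0.96 (SE 0.40, adjusted p 0.417) on regular diet against untreated.

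**Figure D5:**
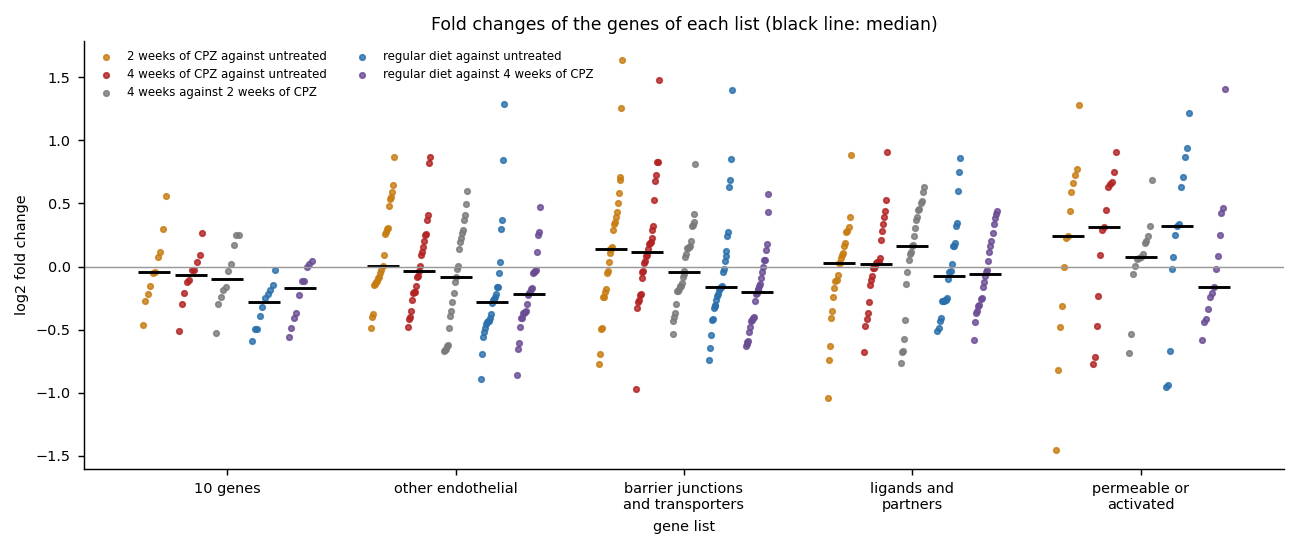
Log2 fold change of the tested genes (points) of the 10 genes and of 4 further lists in the 5 comparisons (colours), with the median of each list as a black line. The medians lie between -0.28 and 0.32, and Slc7a5 is the highest point of the barrier list at 2 and 4 weeks (1.64 and 1.48).

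Of the markers of other cells of the tissue, those of oligodendrocytes and microglia had the widest medians. All 14 tested oligodendrocyte markers were lower at 2 weeks with no overlap of groups, beside 9.02% of all probes, with a median of -3.37, and all 14 were lower at 4 weeks, with a median of -2.77, although 0 of 14 passed the adjusted test. Microglial markers had medians of 0.95 at 2 weeks, 1.62 at 4 weeks and 2.25 on regular diet against untreated, with 1 of 14 called, Fcrls at 4 weeks (2.24, adjusted p 0.0467 in limma). The other marker lists, of astrocytes, neurons, fibroblasts and meninges, choroid plexus and ependyma, red blood cells, and T and B cells, had 0 called genes. The summed signal of choroid plexus and ependyma markers ran from 1.95 to 57.5 over the arrays, and that of red blood cells from 23.6 to 144. Choroid plexus and ependyma markers were higher in 10 of 10 genes at 4 weeks, with a median of 0.81. The 4-week arrays alone spanned the whole range of their summed signal, from 1.95 to 57.5. Neuronal markers were higher in 12 of 12 genes at 4 weeks against 2 weeks, with a median of 0.47, and lower in 12 of 12 on regular diet against untreated and against 4 weeks, with medians of -0.41 and -0.52. Fibroblast and meningeal markers were higher in 9 of 9 genes at 2 weeks, with a median of 0.51, and lower in 9 of 9 at 4 weeks against 2 weeks, with a median of -0.63. The part of these cell types in the values of the 10 genes was not tested.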

How the data were processed

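The authors deposited, for each of 16 arrays, the intensity of every spot from Agilent Feature Extraction (11.0.1.1 per the file headers), background-subtracted and detrended within the array, and a GeneSpring table of processed log2 values, in which arrays are scaled by their 75th percentile and probes centred on the controls' median. Spots flagged as outliers (48 to 126 an array) and control spots were left out, spots of a probe were averaged, and log2 signals, with no pseudocount, were set relative to the 75th percentile of each array. Tested probes were well above background on all arrays of 1 or more groups. On single arrays 57.3 to 72.2% of probes were, and the number of arrays limits the precision.

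The scanner file recorded for a sample and the table's column of that sample hold different arrays for 14 of 16 samples. Arrays were assigned through the table (r of at least 0.999985 with 1 column, at most 0.883 with the next); in all 16 the running number of the scanner file then equals the sample's place in the series, against 2 of 16 as recorded. The recorded assignment is an alternative.

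Gene names came from RefSeq by accession (GRCm38.p6; 27479 of 41174 probes). Groups were fitted with limma 3.58.1 in R 4.3.3: untreated, 2 and 4 weeks in 1 model (10 arrays, 7 residual degrees of freedom, median residual SD 0.398), and regular diet in a model of all 4 groups (16 arrays, 12 residual degrees of freedom). A gene is given by its brightest tested probe. All arrays were scanned on 1 day on 4 slides, and slide, scaling, background, filter, weights, test and left-out arrays were varied. The files hold no spot mean, so the normexp alternative (offset 50) used spot medians.

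The genes and lists were chosen with earlier results of these data known. Named are the 10 genes, of each vascular list the 4 genes with the smallest p in any comparison, called genes, and the 5 closest to the mean of the 10; further names of list members are examples of content. Matplotlib drew the figures.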

Additional observations from a re-analysis of the deposited data

Results flagged for a closer look

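In groups of at least 4 arrays, the highest or lowest array of each of the 10 genes was set against the rest of its group by Dixon's ratio, the gap to the nearest array over the range of the group. Of 20 such groups, 2 passed the 95% critical value, and chance passes about 1 in 20. Pecam1 on 4-week array 1, at -2.31 against -2.75, -2.79 and -2.74, had a ratio of 0.889. Without that array the log2 fold change of Pecam1 at 4 weeks against 2 weeks was 0.13 instead of 0.25. Mfsd2a on regular diet array 3, at 1.87 against 1.03 to 1.27, had a ratio of 0.716.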

How the results depend on the processing

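No member was called in any of the 140 settings and comparisons, the reported one included, which covered 2 other scalings, background, filter, slide, pairing, weights, assignment, model and test, and each array left out in turn. An adjusted p under 0.05 at less than 2-fold occurred for Pecam1 under the other scalings and for Mfsd2a, Kdr, Flt1 and Slc2a1 under array weights, which put a weight of 307 on 2-week array 3 and at most 4.69 on any other array of that model, and whose iterations stopped before they converged. The median of the 10 genes at 2 weeks was -0.05, between -0.30 and 0.01 under the settings other than left-out arrays and the recorded files, and between -0.17 and 0.24 with an array left out. At 4 weeks these were -0.07, -0.10 to 0.11 and -0.23 to 0.18. At 4 weeks against 2 weeks they were -0.10, -0.10 to 0.31 and -0.31 to 0.12. On regular diet against untreated they were -0.28, -0.50 to -0.02 and -0.44 to -0.04, and against 4 weeks -0.17, -0.47 to -0.12 and -0.36 to -0.06. With the scanner files as recorded, the 5 medians in this order were -0.07, -0.53, -0.39, -0.52 and 0.055, and limma called 0 genes in each comparison. Scaling to the median moved the median of all probes by up to 0.3. Calls over all genes numbered 49 at 2 weeks (0 to 282 under the settings other than weights), 41 at 4 weeks (0 to 431), 3 at 4 weeks against 2 weeks (0 to 58), 194 on regular diet against untreated (0 to 285) and 1 against 4 weeks (0 to 1530).

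A direction is taken as turned where both values exceed their SE. With the scanner files as recorded this occurred for Mfsd2a at 2 weeks (-0.69) and on regular diet against 4 weeks (0.26) and for Pecam1 at 4 weeks against 2 weeks (-0.24). The same held at 4 weeks against untreated for Slc3a2 (-0.75), Slc7a5 (-0.80), Angptl4 (-0.55) and Dll4 (0.32), for Vegfc at 4 weeks against 2 weeks (-0.27), and on regular diet against 4 weeks for Slc7a1 (0.39), Foxq1 (0.31), Slc7a5 (0.96), Angptl4 (0.58) and Mmp2 (-0.86). With array weights Dll4 turned at 4 weeks against 2 weeks (-0.27). The cause was not tested beyond the change of assignment and weights. Slc7a5 was called at 4 weeks without 4-week array 2 (1.77, adjusted p 0.0315 in limma). Slc7a5 was also called with the slide as a block, at 4 weeks under both forms and at 2 weeks under the random one. With array weights, 3 of 26 barrier genes and 4 of 13 genes of a permeable endothelium were called at 2 weeks, among them Slc7a5, Slc3a2, Apln and Angptl4, and 2, 2 and 1 of the barrier, permeable and ligand lists at 4 weeks, 1 barrier gene at 4 weeks against 2 weeks and 1 of each of these lists on regular diet against untreated.

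Arrays with the same number did not deviate together (median r -0.08 over 19 pairs, against 0.01 over 74 pairs of other numbers), so the numbers were not taken as a pairing. With the number as a replicate block, the median of the 10 genes was -0.05 at 2 weeks, -0.08 at 4 weeks, -0.04 at 4 weeks against 2 weeks, -0.50 on regular diet against untreated and -0.30 against 4 weeks, with 0 members called and 0, 0, 0, 21 and 0 genes called in all.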
